A study of Mus musculus with 6 samples.

Results

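The immediate early genes Fos, Fosb, Jun, Junb, Egr1, Atf3, Ier2, Ier3, Myc and Klf6 were followed in liver tumors of WT and Top1mt-KO mice. They were selected by gene symbol, with earlier results of these data known. Of these, 10 of 10 were found among the 30236 genes of the expression table. RNA-seq had been performed on 3 WT tumors and 3 Top1mt-KO tumors from male C57BL/6 mice. Every animal, WT or KO, had been given the carcinogen diethylnitrosamine on day 14 of life and then, from week 8, the liver toxin carbon tetrachloride for 14 weeks, and tumors were excised at week 22. The KO animals were Top1mt -/-, lacking the mitochondrial topoisomerase in all tissues, and the WT animals were their littermates from heterozygous breeding. Tumors were flash frozen in liquid nitrogen before RNA extraction, and each library stands for 1 piece of whole tumor, with all its cell types. By the paper's methods, liver tissue was taken after the peak of proliferation that follows carbon tetrachloride injury. No untreated liver and no healthy tissue next to the tumors were analysed here.

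Immediate early genes are transcribed within minutes of a stimulus, with no need for newly made protein. The factors that switch them on are already in the cell and only have to be activated, often by phosphorylation. Growth factor signalling through ERK acts on SRF and its ELK partners, and cyclic AMP and stress kinases act on CREB and ATF factors. Most of the products are transcription factors. FOS and JUN proteins pair to form AP-1, and Fosb and Junb belong to the same families. Egr1 encodes a zinc finger factor, Atf3 a stress-induced repressor of the ATF/CREB family, Klf6 a Krüppel-like factor and Myc the driver of growth and ribosome production. Ier2 and Ier3 are small early response genes, the latter linked to cell survival. In liver this set is known for its sharp rise after partial hepatectomy and injury.

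Upstream sequence was examined for the features through which such genes are induced. The RefSeq promoter table (GRCm38.p6) held entries for 7 of the 10 genes, namely Fos, Fosb, Jun, Junb, Atf3, Ier3 and Klf6, and the 250 bases before each annotated start were searched on both strands. The letters TGACG, the core of the site bound by CREB and ATF factors, occurred before 4 of the 7 genes (Fos, Fosb, Junb and Atf3), against 17.8% of 32851 promoters. The full palindrome TGACGTCA, which contains TGACG on both strands, was in 0 of the 7 and in 1.55% of all promoters. The AP-1 letters TGANTCA (0 of 7, 6.75% of all) and the CArG box bound by SRF (0 of 7, 1.47% of all) were not in these windows. CCAAT occurred before 4 of the 7 genes (Ier3, Jun, Junb and Klf6), against 33.8% of all promoters, and TATAAA before Fos alone, against 12.4%. Such matches describe letters, not occupied sites. Bases further upstream were not searched, nor were Egr1, Ier2 and Myc, so sites there could not be seen.

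The 150 bases before the start of 5 genes are shown. Fos, Fosb and Junb carry the CREB core TGACG, and Jun and Klf6 do not. The stretches of Jun and Klf6 hold the similar letters tgacatca, which were not searched. A link between any of these letters and the expression values was not tested. Capitals mark the CREB core, the CCAAT box and the TATA letters on either strand. Fos lies at chr12:85473740-85473889 (+), Fosb at chr7:19310046-19310195 (-), Junb at chr8:84978749-84978898 (-), Jun at chr4:95052223-95052372 (-) and Klf6 at chr13:5861339-5861488 (+), each given for the stretch printed, in the direction of transcription.
Fos: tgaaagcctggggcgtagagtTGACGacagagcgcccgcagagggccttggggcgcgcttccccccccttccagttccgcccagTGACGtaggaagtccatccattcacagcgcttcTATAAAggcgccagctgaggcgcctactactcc
Fosb: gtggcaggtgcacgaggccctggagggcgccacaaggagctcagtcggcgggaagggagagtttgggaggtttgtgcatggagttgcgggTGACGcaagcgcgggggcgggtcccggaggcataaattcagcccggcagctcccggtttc
Junb: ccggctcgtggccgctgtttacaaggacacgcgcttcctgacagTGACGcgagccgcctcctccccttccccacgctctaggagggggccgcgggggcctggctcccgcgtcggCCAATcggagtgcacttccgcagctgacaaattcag
Jun: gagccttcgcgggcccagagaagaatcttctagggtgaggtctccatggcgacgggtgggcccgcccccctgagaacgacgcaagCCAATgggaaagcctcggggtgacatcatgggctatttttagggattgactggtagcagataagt
Klf6: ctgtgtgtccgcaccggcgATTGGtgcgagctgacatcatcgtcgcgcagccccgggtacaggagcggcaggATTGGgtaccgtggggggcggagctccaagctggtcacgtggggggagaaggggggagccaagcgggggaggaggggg
In Fos, TGACG began 129 and 66 bases and TATAAA 33 bases before the start. The CREB core began 60 bases before the start of Fosb and 106 before that of Junb. CCAAT began 65 bases before the start of Jun, 36 before that of Junb, and on the opposite strand 131 and 78 bases before that of Klf6.

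The expression values are the authors' log2 values, normalized between libraries. They behave like a regularized log, in which weakly expressed genes are drawn toward their mean, so that differences of such genes may be understated. Values are therefore compared between libraries for 1 gene, not between genes. No read totals accompany them, and the depth is unknown. Hepatocyte marker genes were high in all tumors (log2 of the summed level 20.9 to 21.7 over 7 of the 8 genes listed). Top1mt itself ranged from 5.99 to 8.01 in WT and from 5.58 to 6.41 in KO, and WT replicate 2, at 5.99, lay below 2 KO libraries, against its label. KO replicate 1 stood apart through Gm42418, at 22.0, and WT replicate 3 was next, at 15.8 against 11.7 to 12.7 in the other 4 libraries. Lars2 had the same order, at 20.1 in KO replicate 1, 12.7 in WT replicate 3 and 8.44 to 9.05 elsewhere. Values without these libraries, or without WT replicate 2, are given where they moved a result most.

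Between genotypes, 0 of the 10 immediate early genes passed an adjusted p of 0.05 by limma, as did 0 of 22677 genes tested (0%). At an unadjusted p under 0.05 the count was again 0 of 10, where the share over all genes tested was 4.34%. For 0 of the 10 were the 3 WT libraries separated from the 3 KO libraries, against 8.28% of all genes tested. For 3 of the 10 the KO mean was above the WT mean and for 7 below it, and the median log2 fold change (KO minus WT) was -0.24. Over all genes tested the median was -0.015, with 10817 genes above and 11860 below. The median of the 10 genes depended on WT replicate 3 and on KO replicate 2, since it was -0.0043 without the former and -0.0038 without the latter. It was -0.26 without WT replicate 2 and KO replicate 1. Among cell type markers the median log2 fold change was 0.0062 for hepatocytes, 0.015 for macrophages and -0.40 for stellate cells. It was -1.19 for 5 bile duct, -0.82 for 5 red cell and -0.88 for 6 neutrophil markers, with 2, 3 and 2 genes at an unadjusted p under 0.05 and 0 past the adjusted threshold of limma. The mean deviation of these last 3 lists in WT replicate 3 was 1.06, 0.16 and 1.24 on the log2 scale. Their part in the values of the 10 genes was not tested. All 10 genes passed the filter on low values. Because whole tumors were sequenced, fewer cells of a type and less RNA per cell cannot be told apart in any of these differences.

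**Figure D1:**
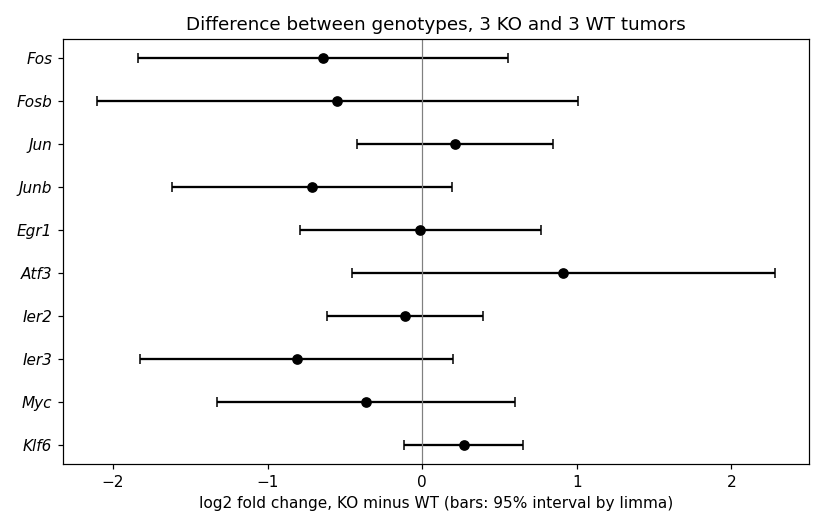
Log2 fold change (KO minus WT, x axis) of each immediate early gene (y axis), with its 95% interval by limma from 3 WT and 3 KO libraries. All 10 intervals include 0. The estimates run from -0.81 for Ier3 to 0.91 for Atf3.

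Values are listed in the order of replicates 1, 2 and 3. Of the AP-1 genes, Fos was 6.11, 6.17 and 8.00 in the WT tumors and 6.35, 5.61 and 6.38 in the KO tumors. One library was set apart: Fos in WT replicate 3 was 3.06-fold above the next highest library, and the other 5 lay within a range that both genotypes shared. The log2 fold change was -0.64 (standard error 0.52, 95% interval -1.84 to 0.55, limma's adjusted p = 0.999), and it was -0.024 without WT replicate 3, -0.97 without WT replicate 1 and -1.06 without WT replicate 2 and KO replicate 1. Fosb, its relative, was also highest in WT replicate 3 and lowest in KO replicate 2. It had log2 values of 1.41, 1.69 and 3.10 in WT tumors and 1.65, 0.411 and 2.497 in KO tumors. It was the 1 gene of the 10 whose mean lay below the median of the table. Its log2 fold change of -0.55 (standard error 0.67) was 0.0061 without KO replicate 2.

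Junb was 10.38, 11.59 and 10.99 in the WT tumors and 11.03, 10.10 and 9.71 in the KO tumors. Thus KO replicate 1 lay among the WT libraries, and WT replicate 1 lay below it. The log2 fold change was -0.71 (standard error 0.39, limma's adjusted p = 0.999), with a 95% interval from -1.62 to 0.19. It was -0.41 without WT replicate 2 and -1.09 without KO replicate 1, where its unadjusted p by limma was 0.0164 and its adjusted p 0.668. Jun was 9.31, 8.71 and 8.47 in WT tumors and 8.57, 9.21 and 9.35 in KO tumors, lowest in the 3 libraries where Junb was highest. Its log2 fold change was 0.21 (95% interval -0.42 to 0.85), 0.034 without WT replicate 3 and 0.39 without WT replicate 2 and KO replicate 1.

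Among the other transcription factors, Egr1 was 9.24, 9.89 and 9.90 in WT tumors and 10.4, 9.34 and 9.22 in KO tumors. The WT mean of 9.68 ± 0.38 (SD, n = 3) and the KO mean of 9.67 ± 0.67 (SD, n = 3) differed by less than their SDs, and the log2 fold change was -0.013 with a 95% interval from -0.79 to 0.77. Leaving out 1 library turned its sign 4 times of 6, and without WT replicate 2 and KO replicate 1 it was -0.29. Myc was 7.25, 6.17 and 6.69 in WT tumors and 5.52, 6.78 and 6.72 in KO tumors. The lowest value was that of KO replicate 1, without which the log2 fold change of Myc was 0.048 rather than -0.36. Klf6 varied least of the 10 genes, at 9.71, 9.14 and 9.38 in WT tumors and 9.59, 9.73 and 9.71 in KO tumors. Its log2 fold change was 0.27 (95% interval -0.12 to 0.65). It was 0.14 without WT replicate 2 and 0.42 without WT replicate 1, where the unadjusted p of limma was 0.0319.

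Atf3 was 6.19, 6.64 and 6.56 in WT tumors and 6.47, 6.73 and 8.93 in KO tumors. A single tumor, KO replicate 3, was 4.60-fold above the next highest library, and the other 5 libraries lay close together. The log2 fold change of 0.91 (standard error 0.59, limma's adjusted p = 0.999), the highest of the 10 genes, was 0.14 without KO replicate 3. Leaving out KO replicate 1 gave 1.37, and leaving out WT replicate 2 as well gave 1.45. In the tumor of KO replicate 3 Fos was 6.38, within the range of the other libraries, and Fosb had its second highest value.

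Ier3 had the lowest log2 fold change of the 10 genes. It was 7.24, 6.08 and 7.35 in the WT tumors and 6.81, 5.65 and 5.78 in the KO tumors. The groups overlapped through WT replicate 2, which lay below KO replicate 1. The log2 fold change was -0.81 (standard error 0.44, 95% interval -1.82 to 0.20, limma's adjusted p = 0.999). It was -1.58 without WT replicate 2 and KO replicate 1 together, a fit added after seeing the data, still with an adjusted p by limma of 0.605. Because the overlap ran through this pair, leaving it out had to widen the difference. Ier2 covered a narrow range, 7.84, 8.36 and 8.48 in WT tumors and 8.38, 7.91 and 8.04 in KO tumors. Its log2 fold change was -0.11 (95% interval -0.62 to 0.39), and 0.015 without WT replicate 3.

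**Figure D2:**
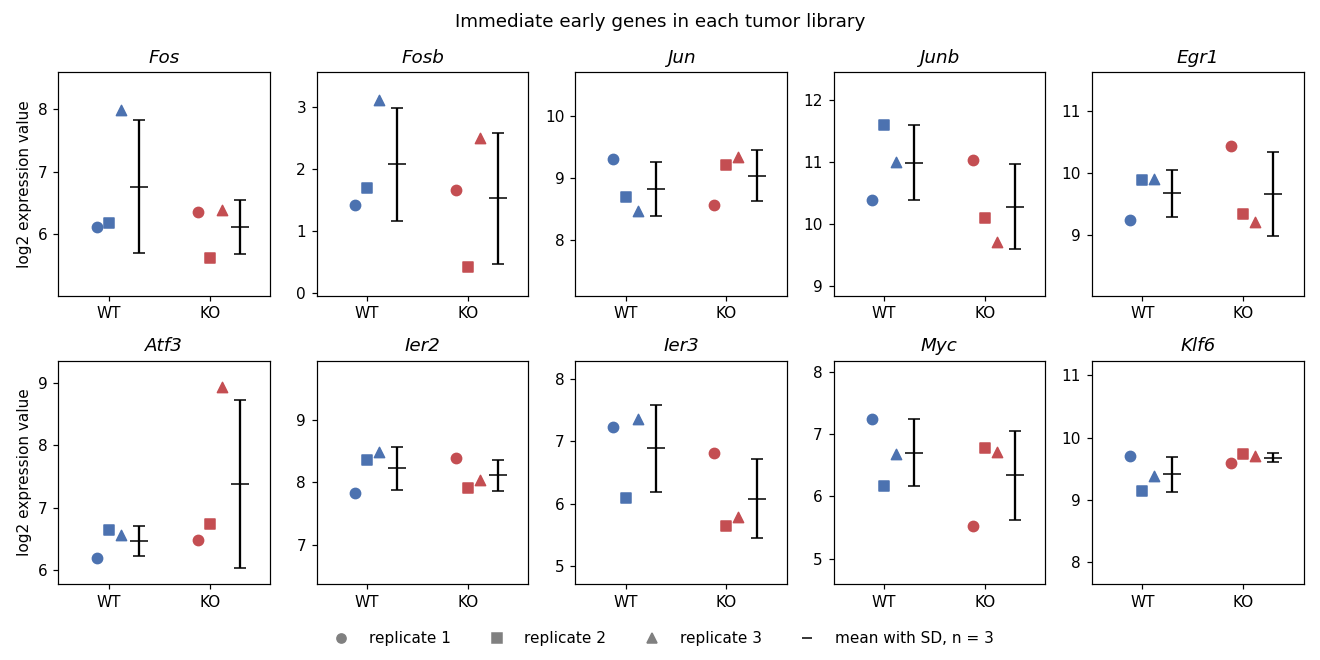
Log2 expression value (y axis, the same span of 3.6 in every panel) of each immediate early gene in WT (blue) and KO (red) tumor libraries, with the marker shape for the replicate number and the mean with SD (n = 3) in black. Single libraries lie far from the rest for Fos (WT replicate 3, 8.00) and Atf3 (KO replicate 3, 8.93), and the genotypes overlap in all 10 panels.

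Of the 10 genes, 8 varied more between tumors of 1 genotype than the median gene did. The SD within genotypes had a median over all genes tested of 0.38 on the log2 scale. For Fosb it was 0.98, at the 94.3rd percentile of all genes tested, for Atf3 0.97 (percentile 94.1) and for Fos 0.82 (percentile 88.6). Ier3 (percentile 79.8), Junb (77.9), Myc (76.9) and Egr1 (68.5) followed. Jun, at percentile 55.2, lay near the middle, and Ier2 (38.0) and Klf6 (23.4) lay below it. The median percentile of the 10 genes was 77.4, and 85.5 for the 9 of them whose mean level lay above the median, ranked among such genes only. From the lowest to the highest library, Atf3 spanned 6.67-fold, Fosb 6.47-fold and Fos 5.21-fold, against 1.56-fold for Ier2 and less for Klf6.

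The tumors did not share 1 order of the 10 genes. Egr1, Junb and Ier2 each had their 3 highest values in WT replicate 2, WT replicate 3 and KO replicate 1. In those same libraries Jun, Klf6 and Myc each had their 3 lowest values. These 3 libraries were therefore at one end of the scale for 6 of the 10 genes, against 16.3% of all genes tested, and the set of 3 was picked after the values were seen and crosses the genotypes. No groups were formed from it and no test was made. The remaining 4 genes, Fos, Fosb, Ier3 and Atf3, had other orders. Gm42418 had its 3 highest values in WT replicate 2 (12.7), WT replicate 3 (15.8) and KO replicate 1 (22.0), against 11.7 to 12.4 elsewhere. Lars2 did not have this order. The part of Gm42418 in the order was not tested. Of the stellate cell and fibroblast markers, Acta2, Des and Pdgfrb (3 of 6 listed, picked after their values were seen) had their 3 lowest values in the same 3 libraries. The summed level of these markers was 13.45, 12.02 and 11.79 in the WT tumors and 11.04, 13.16 and 12.02 in the KO tumors (log2), and its part in the order was not tested. The summed level of the hepatocyte markers was 21.1, 21.5 and 20.9 in WT tumors and 21.7, 21.1 and 21.3 in KO tumors (log2), so WT replicate 3 was lowest there and KO replicate 1 highest.

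**Figure D3:**
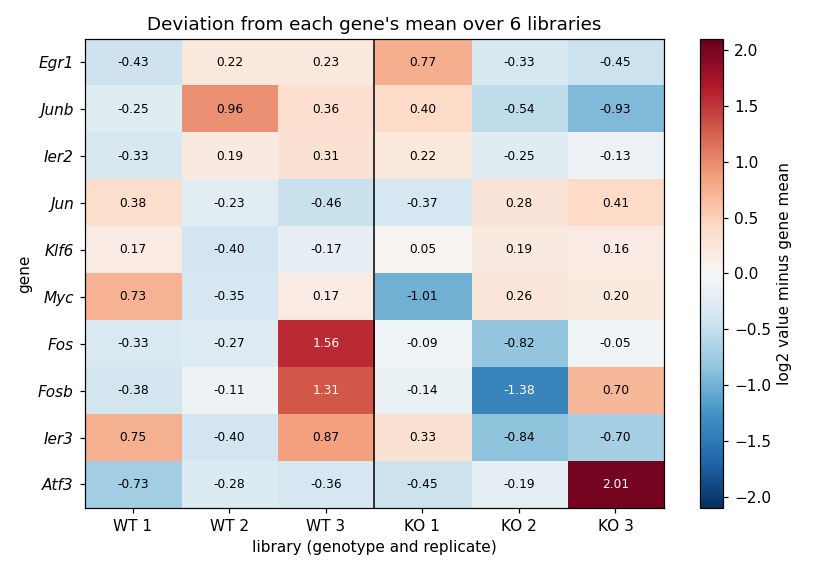
Deviation of each log2 value from the mean of its gene over 6 libraries, with immediate early genes in rows and libraries in columns (red above, blue below the gene mean). Egr1, Junb and Ier2 are above their means in WT 2, WT 3 and KO 1, where Jun is below its mean, while WT 3 stands out for Fos and Fosb and KO 3 for Atf3.

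The mean deviation of the 10 genes from their own means was taken as a library level. It was -0.043, -0.067 and 0.38 in the WT tumors and -0.029, -0.36 and 0.12 in the KO tumors on the log2 scale. The highest tumor was WT replicate 3, where 4 of the 10 genes had their maximum, and the lowest was KO replicate 2, where 3 had their minimum. By medians in place of means the level was 0.27 in WT replicate 3 and -0.29 in KO replicate 2, close to the -0.29 of WT replicate 1. Among its own 10 genes, which make up the level, Fosb (Pearson's r = 0.98 over 6 libraries) and Fos (r = 0.93) were most like it, while Klf6 (r = -0.32) and Jun (r = -0.45) ran against it. Only 4 of the 10 had an r above 0.5. For Myc, Junb, Atf3 and Egr1 r was 0.020, 0.18, 0.20 and 0.22. Of all other genes tested, Irf4 (r = 0.993), Kcnj9 (0.990), St3gal6 (0.988), Gm24530 (0.985) and 9930012K11Rik (0.985) had the patterns most like this level. These 5 were the highest of 22677 genes over only 6 libraries and are given as a description.

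WT replicate 3 was also the tumor with the most myeloid marker RNA. The 6 neutrophil markers all had their highest value there, and so did 5 of the 6 macrophage markers. The summed neutrophil level was 8.42, 8.92 and 9.90 in WT tumors and 8.00, 8.27 and 8.59 in KO tumors (log2), and that of macrophages 12.5, 12.2 and 13.3 in WT tumors and 12.1, 12.6 and 12.8 in KO tumors. None of these markers was among the 430 genes that share 1 value in each library. Their part in the high Fos and Fosb of that tumor was not tested. Handling at harvest can also induce immediate early genes, and its part in any library was not tested. Of the 32 further immediate early genes listed, 8 were highest in WT replicate 3, 7 in WT replicate 1, 5 each in WT replicate 2 and KO replicate 3, 4 in KO replicate 2 and 3 in KO replicate 1. The count of WT replicate 2 includes the weakly expressed Egr3 and Egr4. Their libraries spanned only 1.14-fold and 1.025-fold, so their highest library says little. Nr4a1 and Socs3, from those highest in WT replicate 3, were picked after their values were seen. Arc (2.11), Ctgf (6.72), Klf4 (4.48) and Klf10 (9.43), also picked in this way, had their lowest value in that same library. Nr4a1, an orphan nuclear receptor induced together with Fos, was 5.32, 6.31 and 8.51 in WT tumors and 6.24, 5.90 and 6.49 in KO tumors, 4.05-fold above the next library. Socs3, the feedback inhibitor of cytokine signalling, was 7.19, 6.95 and 8.55 in WT tumors and 6.96, 6.38 and 6.71 in KO tumors.

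Heat shock genes, whose products refold damaged proteins, had a different order. Their mean deviation was highest in WT replicate 1, at 0.79, and lowest in KO replicate 3, at -0.57. Library WT replicate 1 held the maximum of 9 of 11 heat shock genes and of 1 of the 10 immediate early genes. Of the 11 genes 0 had a KO mean above the WT mean, and the median of their log2 fold changes, -0.40, was -0.0085 without WT replicate 1. By the unadjusted p of limma only Dnaja1, a co-chaperone, was under 0.05 (log2 fold change -0.40, standard error 0.16). That is 1 of the 11, where the share over all genes tested was 4.34%.

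Beyond the 10 genes, 32 further immediate early genes were listed, of which 31 were tested, and Egr4 was not, since its mean lay in the lowest 25% of genes. By limma 0 of the 31 passed an adjusted p of 0.05, and 4 had an unadjusted p under 0.05, 1 higher and 3 lower in KO. The share under 0.05 was 4.34% over all genes tested. For 3 of the 31 the groups did not overlap, against 8.28% of all genes tested. Among the 31, KO means were above WT means for 10 and below for 21, with -0.21 as the median of the log2 fold changes. Trib1, a pseudokinase scaffold, ranged from 9.62 to 10.04 in the WT tumors and from 8.81 to 9.48 in the KO tumors, with a log2 fold change of -0.68 (standard error 0.21). Rcan1, an inhibitor of calcineurin, also did not overlap between groups, with a log2 fold change of -0.61. Plk3, a stress kinase, had one of -0.60 with groups that overlapped. Btg1, an antiproliferative gene, was the 1 of these 4 with a higher mean in KO, from 8.96 to 9.18 in the WT tumors and from 9.24 to 9.54 in the KO tumors (log2 fold change 0.34).

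Phosphatases and mRNA decay factors shut the response down again. Dusp1, itself an immediate early gene and a phosphatase that inactivates p38, JNK and ERK, was 9.44, 9.48 and 9.23 in WT tumors and 8.38, 8.42 and 8.87 in KO tumors. All 3 KO libraries lay below all 3 WT libraries, WT replicate 2 and KO replicate 1 included. The log2 fold change of Dusp1 was -0.83 (standard error 0.17, 95% interval -1.22 to -0.43, unadjusted p = 0.00141 and adjusted p = 0.938 by limma), and it ran from -0.98 to -0.74 when any 1 library was left out. Because the groups did not overlap, leaving out 1 library could not turn its sign. Dusp8, a phosphatase of JNK and p38, ranged from 4.997 to 5.62 in the WT tumors and from 5.88 to 6.25 in the KO tumors (log2 fold change 0.69, unadjusted p = 0.0459 by limma). Of these 13 feedback and mRNA decay genes 0 passed an adjusted p of 0.05, and 2 had an unadjusted p under 0.05 by limma. The share under 0.05 was 4.34% over all genes tested. For 3 of the 13 the groups did not overlap, against 8.28% of all genes tested. Among the 13, KO means were above WT means for 3 and below for 10, and the log2 fold changes had a median of -0.33. It was -0.18 without WT replicate 1 and -0.59 without WT replicate 2 and KO replicate 1. WT replicate 2, WT replicate 3 and KO replicate 1 lay at one end of the values for 2 of the 13 genes. That is near the share of 16.3% over all genes tested, so it does not set this list apart. The 2 genes were Dusp5 and Dusp6, phosphatases of ERK, picked after their values were seen, and both were highest in those libraries. For Dusp6 these were 11.2, 11.3 and 11.1, against 10.9 in WT replicate 1 and 10.5 and 10.1 in KO replicates 2 and 3.

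Of 14 other AP-1 and MAF partners 0 passed an adjusted p of 0.05 by limma. KO means were above WT means for 2 and below for 12, and the log2 fold changes had a median of -0.18 (-0.063 without WT replicate 1, -0.30 without WT replicate 2). Of the 17 upstream kinases and factors 0 passed an adjusted p of 0.05 by limma, 8 lay above and 9 below WT, and the median was -0.028. Their SD within genotypes had a median percentile of 20.6. That of the 10 genes was 77.4, that of the 31 further immediate early genes 72.9, and those of neutrophil (79.4), B cell (85.2), bile duct (89.7) and stellate cell markers (90.1) were higher. The largest log2 fold changes among them were -0.27 for Rps6ka1, the kinase RSK1, and 0.26 for Mkl2, a coactivator of SRF. With 1 library left out the former ran from -0.38 to -0.13 and the latter from 0.15 to 0.43, the last without KO replicate 1.

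The partners and targets of MYC were then compared. Among 10 network genes KO means lay above WT means for 3 and below for 7, the median of the log2 fold changes was -0.15, and the largest were those of Mnt, which opposes MYC at shared sites (-0.32), and Mycl (0.26). Both depended on WT replicate 3, without which they were -0.074 and 0.0095. Among 12 target genes 6 lay above and 6 below, with a median of 0.0069. Bop1, a ribosome biogenesis factor, had a log2 fold change of -0.31 and Cdk4 one of -0.22. In both lists 0 genes passed an adjusted p of 0.05 by limma, and 0 had an unadjusted p under 0.05. The mean deviation of the targets was lowest in KO replicate 1, where Myc was also lowest, at -0.21, and next lowest in WT replicate 1, where Myc was highest, at -0.10.

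**Figure D4:**
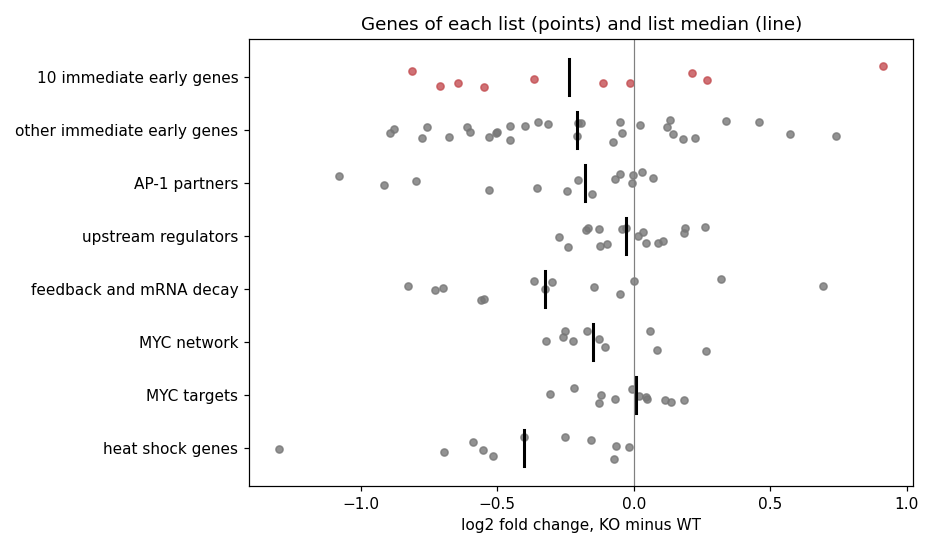
Log2 fold change (KO minus WT, x axis) of every tested gene (points) in each list (y axis), with the list median as a black line. The 10 immediate early genes (red) have a median of -0.24, the upstream regulators one of -0.028 and the heat shock genes have a median of -0.40.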

How the data were processed

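Total RNA of 3 WT and 3 Top1mt-KO liver tumors was sequenced as stranded paired-end libraries. The deposited values are log2 expression levels, 1 per gene symbol and library. Before depositing them, the authors, by their methods, ran Trimmomatic, BWA, featureCounts and DESeq2. The submitters' processing notes instead name STAR 2.5.1 and GRCm38, so the aligner is uncertain. The log2 transform is not given in the sources used here. Values run from -2.24 to 22.0, no counts can be recovered, and the depth of each library is unknown. Whether strand was used in counting is not stated. The table's 3 columns without a name were not used, and it has 0 further columns of per-sample values.

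Genotypes were compared across all genes with limma 3.58.1 (R 4.3.3), allowing the variance to follow the mean and adjusting by Benjamini-Hochberg, on the 22677 genes above the lowest 25% of mean values. For each of the 10 genes an exact two-sided permutation test over the 20 regroupings of 6 libraries was also run, where 3 against 3 allow no p below 0.1. The smallest was 0.2, for Ier3. P-values set the difference between genotypes against the spread between these tumors. The fit was tested on simulated data. Members and lists were chosen with earlier results of these data known. Named genes are the 10, Top1mt, the 5 most alike genes, Gm42418 and Lars2. Also named are genes of each list with an unadjusted p under 0.05 or otherwise its 2 largest changes. Others are said to be picked after their values were seen. Some genes that the rule names are not reported here. Alternatives were no trend, quantile normalization, no filter, a filter at the median, a replicate block and each library left out. The fit without WT replicate 2 and KO replicate 1 was added after seeing the data. Of marker genes for T cells, B cells and endothelium 0, 0 and 1 had an unadjusted p under 0.05, with medians of -0.020, 0.11 and 0.10, and 0 passed the adjusted threshold.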

Additional observations from a re-analysis of the deposited data

How the results depend on the processing

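None of the 10 genes passed an adjusted p of 0.05 under any alternative (smallest 0.605 by limma), and from 0 to 2 of them fell under an unadjusted p of 0.05. Among refits of single genes of the 10, 112 kept the direction and 7 turned it, all 7 with 1 library left out. Refits with no trend, another filter or the replicate block could not turn it. They leave the log2 fold change of a gene unchanged. With 1 library left out the log2 fold change ran from -1.04 to 0.0061 for Fosb, -0.40 to 0.21 for Egr1, -0.31 to 0.015 for Ier2 and -0.63 to 0.048 for Myc, and from -1.20 to 0.40 for Nr4a1. For Egr1 it was 0.094, 0.099, 0.15 and 0.21 without WT replicate 2, WT replicate 3, KO replicate 2 and KO replicate 3. The causes were not tested. Over all genes, 4 passed with no filter on low values and from 0 to 1 with 1 library left out (1 without KO replicate 1), 0 of them among the 10. The other alternatives gave 0, with 590 to 1349 genes at an unadjusted p under 0.05. With the replicate block 0 genes and 0 of the 10 passed, and 1 of the 10, Ier3, fell under an unadjusted p of 0.05. The deviations of libraries 1, 2 and 3 of either genotype from the group mean correlated at -0.12, -0.076 and 0.052, and the shared numbers were not taken as pairs. Without WT replicate 2 the median of the further immediate early genes was -0.38, and with the filter at the median -0.35. That of the AP-1 partners was -0.33 without WT replicate 2 and KO replicate 1, and that of the MYC network -0.038 without KO replicate 2. With 1 library left out the medians of the upstream regulators ran from -0.052 to 0.0080 and of the MYC targets from -0.075 to 0.097. The depth is unknown, and the transform behind the values is not known, so differences of low genes such as Fosb may be understated.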
